A study of Caenorhabditis elegans with 10 samples.

Results

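The nspa, nspb, nspc and nspe genes of Caenorhabditis elegans belong to the nematode-specific peptide family, a set of short genes named in lettered groups. They were chosen by name: every gene symbol of the deposited table made of nspa, nspb, nspc or nspe and a number, which gave 48 of 40857 symbols (10 nspa, 12 nspb, 18 nspc and 8 nspe). The 48 symbols stood on 43 entries of the table, since 5 entries carried 2 symbols each (nspa-1 with nspa-3, nspa-4 with nspa-5, nspa-6 with nspa-7, nspc-2 with nspc-6, and nspc-12 with nspc-15). The RefSeq table of assembly WBcel235 lists a separate locus for each of the 48, so reads of these pairs cannot be told apart here, and each shared entry was counted once.

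Whole worms at the L4 to preadult stage, from semi-synchronized cultures, were grown at 15 °C and either moved to 25 °C for 22 hr from the L3/L4 stage or kept at 15 °C. The 5 genotypes were daf-2(e1370);math-33(tm3561), daf-2(e1370), math-33(tm3561), daf-16(mu86);daf-2(e1370) and the wild type N2. From here on daf-2;math-33 is called the math-33 double mutant and daf-16;daf-2 the daf-16 double mutant. The receptor DAF-2 binds insulin-like peptides and restrains the FOXO transcription factor DAF-16. The e1370 allele is temperature-sensitive, and MATH-33 is an enzyme that removes ubiquitin from proteins. The study was designed around target genes of DAF-16 and their dependence on math-33. Each genotype and temperature has 1 library, made from about 3000 worms, and differences between single libraries therefore have no replicates to be checked against.

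Nematode-specific peptide genes encode small peptides found in nematodes, and many lie in runs of close copies. The nspd group, related by name, is known for expression in sperm of C. elegans. For single nspa, nspb, nspc and nspe genes no role is stated here.

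Values are FPKM, fragments per kilobase of transcript per M reads. The values correspond to 25.21 to 35.22 M reads per library. The math-33 gene itself was listed at 13.9 and 14.4 FPKM at 25 and 15 °C in the math-33 double mutant and at 14.1 and 15.9 FPKM in the math-33 single mutant, against 59.8 to 79.3 FPKM in the 6 libraries with math-33 intact. In the daf-16 double mutant, 4 of the 7 daf-16 transcripts longer than the shortest had no read beyond it at either temperature. Every library of another genotype (8 in all) had between 2 and 362 such reads in each of these 4. The remaining longer transcripts kept up to 19, 123 and 23 such reads in the daf-16 double mutant, fewer than in any library of another genotype. The listed level of daf-16 was not reduced in the daf-16 double mutant. It was 164.0 and 182.4 FPKM at 25 and 15 °C there, against 81.3 to 135.2 FPKM in the other libraries. The math-33 single mutant at 25 °C lay outside the range of the remaining libraries in most cell type and stage marker lists. It was lowest in the summed hypodermis markers (334 FPKM, the rest 1303 to 2345 FPKM), in the molting genes (216 FPKM, the rest 1042 to 2629 FPKM) and in the intestine, pharynx and muscle lists. The hypodermis sum does not hold for each gene of the list. In the fit described below, over both temperatures, 4 of 6 hypodermis genes had positive estimates against N2 (median 0.075), and 1 of 15 molting genes did. It was highest in the oocyte and eggshell genes (3663 FPKM, the rest 523 to 1897 FPKM), in the vitellogenins (12311 FPKM, the rest 1791 to 6805 FPKM) and in the sperm and nspd lists, whose values are given with the nspa genes.

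The genes lay in few places. Of the 43 entries, 39 fell into 7 groups of neighbours no more than 100 kb apart, and 4 stood alone. In the coordinates of build ce10, 6 nspa entries lay on chromosome V between 14750338 and 14891171. All 16 nspc entries were on chromosome X, in 3 groups called here by the cosmid of their systematic names: C03G5 (8534674 to 8542185, 6 entries), F42F12 (12342937 to 12358900, 5 entries) and D1025 (14523581 to 14530061, 5 entries). The 8 nspe entries lay on chromosome II between 12613600 and 12629206. The nspb entries were split between a group on chromosome II (14578238 to 14588166, 4 entries), a group on chromosome IV (6590785 to 6599481, 5 entries) and 3 genes that stood alone, nspb-6 (chromosome IV, 5895506 to 5895808), nspb-11 (chromosome II, 12907336 to 12907630) and nspb-12 (chromosome III, 5568274 to 5568709). The nspa entries are 103 bases long in the table, the nspe entries 213 to 225, the nspb entries 237 to 258 and the nspc entries 302 to 304.

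Most of these genes were weakly expressed, and a handful held most of the signal. Summed over the 43 entries, the families reached 266.8 and 465.1 FPKM at 25 and 15 °C in the math-33 double mutant, 230.2 and 484.0 in daf-2, 411.0 and 466.4 in the math-33 single mutant, 272.2 and 495.1 in the daf-16 double mutant, and 333.1 and 517.4 in N2. In each genotype the sum was lower at 25 °C. The 3 genes with the highest means, nspe-1, nspc-20 and nspb-6, supplied between 36.3 and 65.2% of it. Their mean levels over the 10 libraries were 97.9, 64.4 and 47.5 FPKM. A further 5 entries averaged 10 FPKM or more, namely nspc-4 (27.1 FPKM), nspe-2 (19.4 FPKM), nspb-12 (19.3 FPKM), nspe-7 (14.4 FPKM) and nspa-8 (12.7 FPKM). At the other end, 10 entries did not reach 1 FPKM in at least 2 libraries and were left out of the tests, among them nspa-9, which was listed at 0 in all 10 libraries. A listed 0 allows up to 3 read pairs, which for these short transcripts is 1.654 to 2.31 FPKM in nspa and 0.56 to 1.117 FPKM in the other families. The filter left 33 entries: 4 nspa, 10 nspb, 13 nspc and 6 nspe.

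**Figure D1:**
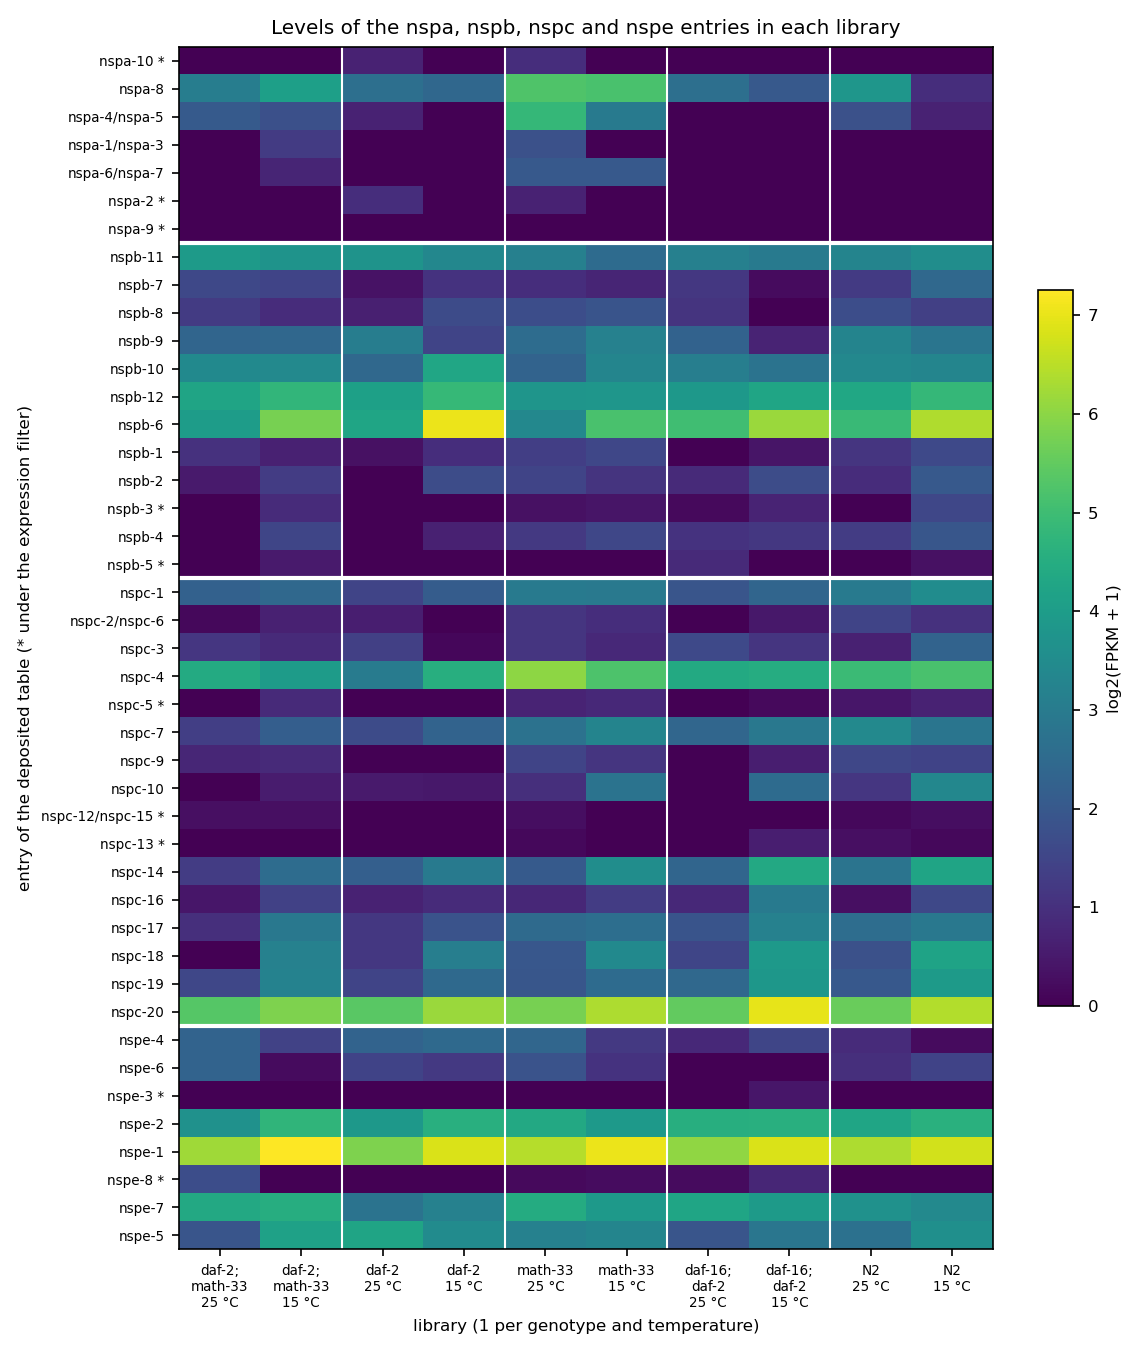
Level of each of the 43 entries (rows, ordered by family and position; an asterisk marks the 10 under the expression filter) in each of the 10 libraries (columns, by genotype and temperature), as log2(FPKM + 1). nspe-1, nspc-20 and nspb-6 are bright in all libraries, while the rows of nspa-4 with nspa-5, nspa-6 with nspa-7 and nspa-8 are brightest in the columns of the math-33 single mutant.

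Of the comparisons tested, temperature gave the most calls among these genes, as it did among all genes (3099 of 16085, the next most 635). The entries differed from all genes in the direction of the calls rather than in the share called. Across the 5 genotypes, nspc-18, nspb-6, nspc-14, nspe-1, nspc-19 and nspc-20 were lower at 25 °C than at 15 °C, and no entry was higher past the threshold. The strongly expressed nspe-1, nspc-20 and nspb-6 were all among the genes that fell. The fit was an additive linear model of genotype and temperature on log2(FPKM + 1) with limma, with p-values adjusted by Benjamini-Hochberg over 16085 genes. Its estimates and SEs are differences on that scale. In it 6 of the 33 entries passed at 0.05, all 6 as falls, where 4.68% of all genes tested fell and 14.6% rose (19.3% in all). The median estimate of the 33 entries was -0.34 and that of all genes 0.089.

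nspb-6 had 15.1, 18.3, 9.40, 31.5 and 29.2 FPKM at 25 °C in the math-33 double mutant, daf-2, the math-33 single mutant, the daf-16 double mutant and N2, against 53.3, 130.4, 34.9, 70.5 and 82.1 FPKM at 15 °C in the same order of genotypes. Every library at 25 °C was below every library at 15 °C. The level at 25 °C was lower by 3.53, 7.11, 3.72, 2.24 and 2.81 times, again in that order, and in daf-2 the 95% counting interval, an exact interval of the ratio of read pairs that covers counting error only, was 5.56 to 9.22. The limma estimate was -1.78 (SE 0.22, adjusted p = 0.00747).

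nspe-1 had 73.1, 57.0, 86.5, 65.1 and 81.7 FPKM at 25 °C in the math-33 double mutant, daf-2, the math-33 single mutant, the daf-16 double mutant and N2, against 151.4, 114.4, 130.3, 112.8 and 107.0 FPKM at 15 °C. The ranges did not overlap, and the whole difference was smaller than that of nspb-6, with a limma estimate of -0.76 (SE 0.12, adjusted p = 0.01). For nspc-20 the levels were 39.5, 40.96, 53.3, 44.4 and 47.3 FPKM at 25 °C in these genotypes, against 56.8, 70.9, 80.6, 124.7 and 85.2 FPKM at 15 °C. Here too every library at 25 °C was below every one at 15 °C, and the estimate was -0.84 (SE 0.15, adjusted p = 0.0134).

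Among the weaker genes, nspc-18 had 0, 1.27, 2.95, 1.88 and 2.49 FPKM at 25 °C in the math-33 double mutant, daf-2, the math-33 single mutant, the daf-16 double mutant and N2, against 8.07, 7.57, 9.79, 14.0 and 17.3 FPKM at 15 °C. It had the most negative estimate of the 33 entries, -2.26 (SE 0.25, adjusted p = 0.00694), and its 2 ranges were well apart. nspc-14 had 1.44, 3.61, 3.18, 4.13 and 5.97 FPKM at 25 °C in the same genotypes, against 4.95, 6.86, 10.8, 19.8 and 17.7 FPKM at 15 °C. nspc-19 had 1.91, 1.79, 2.84, 4.43 and 2.97 FPKM at 25 °C, against 8.30, 4.58, 4.83, 13.2 and 14.5 FPKM at 15 °C. Both were lower at 25 °C in each of the 5 genotypes, with limma estimates of -1.40 (SE 0.19, adjusted p = 0.00823) for nspc-14 and -1.33 (SE 0.22, adjusted p = 0.0121) for nspc-19. The ranges of the 2 temperatures overlapped for nspc-14 and not for nspc-19. Without the 25 or the 15 °C library of the math-33 double mutant, nspc-19 no longer passed (adjusted p = 0.0538 and 0.0548).

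**Figure D2:**
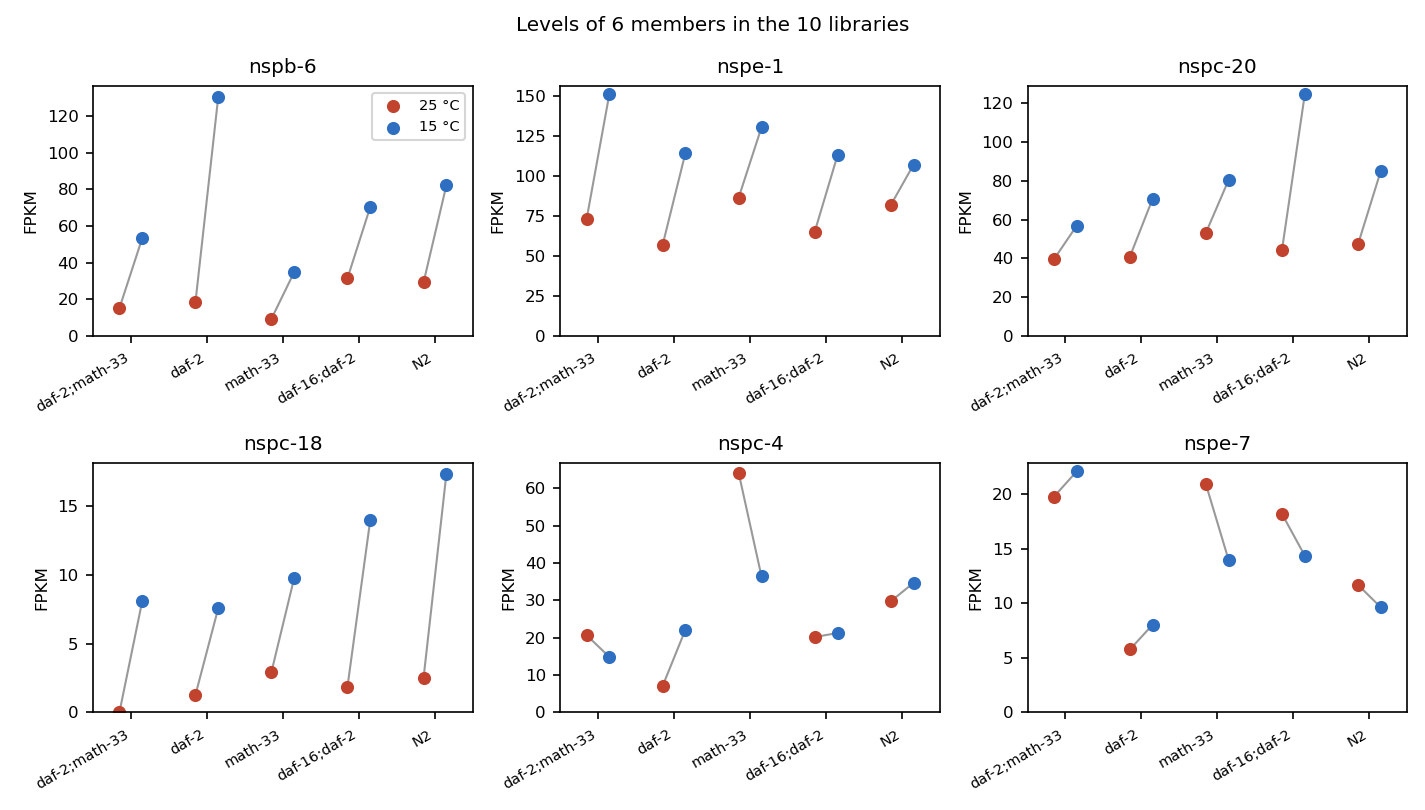
FPKM of nspb-6, nspe-1, nspc-20, nspc-18, nspc-4 and nspe-7 in every library (vertical axes, each from 0), by genotype (horizontal axis), with 25 °C (red) to the left of 15 °C (blue). The red values of nspb-6, nspe-1, nspc-20 and nspc-18 all lie below the blue values of the same gene, whereas nspc-4 and nspe-7 show no common order of the temperatures.

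Entries near the threshold were nspb-12 (-0.44, adjusted p = 0.0507), nspc-10 (-1.41, adjusted p = 0.0508), nspc-16 (-1.01, adjusted p = 0.0584) and nspc-17 (-0.87, adjusted p = 0.0714). All 4 passed as falls when each library was centred on its median, a scaling that takes 10 entries past the threshold. That scaling also took the falls over all 16085 genes from 753 to 1734. The largest positive estimate was that of nspa-4 with nspa-5, 0.79 (adjusted p = 0.0969), and the largest within the other families were those of nspb-9 with 0.58, nspe-6 with 0.54 and nspc-3 with 0.13. nspb-9 had 4.13, 7.45, 4.86, 3.84 and 8.67 FPKM at 25 °C in the math-33 double mutant, daf-2, the math-33 single mutant, the daf-16 double mutant and N2, against 4.35, 1.80, 8.03, 0.665 and 6.11 FPKM at 15 °C. Its order of temperatures changed from genotype to genotype. In total 22 estimates were negative and 11 positive (27 and 6 after centring).

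The 3 nspc groups on chromosome X differed in their values. In the D1025 group all 5 entries had negative estimates, between -2.26 and -0.84, and 3 of them (nspc-18, nspc-19 and nspc-20) fell. In the F42F12 group the 3 entries that passed the filter had estimates of -1.41 to -0.05, and nspc-14 fell. In the C03G5 group 5 entries passed the filter, none was called, and the estimates lay between -0.39 and 0.13, with 2 positive and 3 negative (5 of 5 negative after centring or quantile normalization). The difference between the groups was not tested.

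The summed level of the D1025 group was 42.7, 45.9, 64.4, 54.2 and 58.0 FPKM at 25 °C in the math-33 double mutant, daf-2, the math-33 single mutant, the daf-16 double mutant and N2, against 81.3, 86.5, 101.8, 167.0 and 125.4 FPKM at 15 °C. It was lower at 25 °C in all 5 genotypes. The C03G5 group summed to 27.3, 13.2, 79.5, 29.2 and 48.96 FPKM at 25 °C in these genotypes, against 25.1, 29.5, 54.2, 33.6 and 56.8 FPKM at 15 °C. In the math-33 single mutant it was 1.47 times as high at 25 °C as at 15 °C (95% counting interval 1.24 to 1.75), in daf-2 0.446 times (0.327 to 0.603), and in the other 3 genotypes the interval of the ratio held 1. Most of that sum was nspc-4, with 20.7, 7.12, 64.0, 20.2 and 29.7 FPKM at 25 °C in the same genotypes, against 14.8, 22.2, 36.4, 21.3 and 34.7 FPKM at 15 °C.

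**Figure D3:**
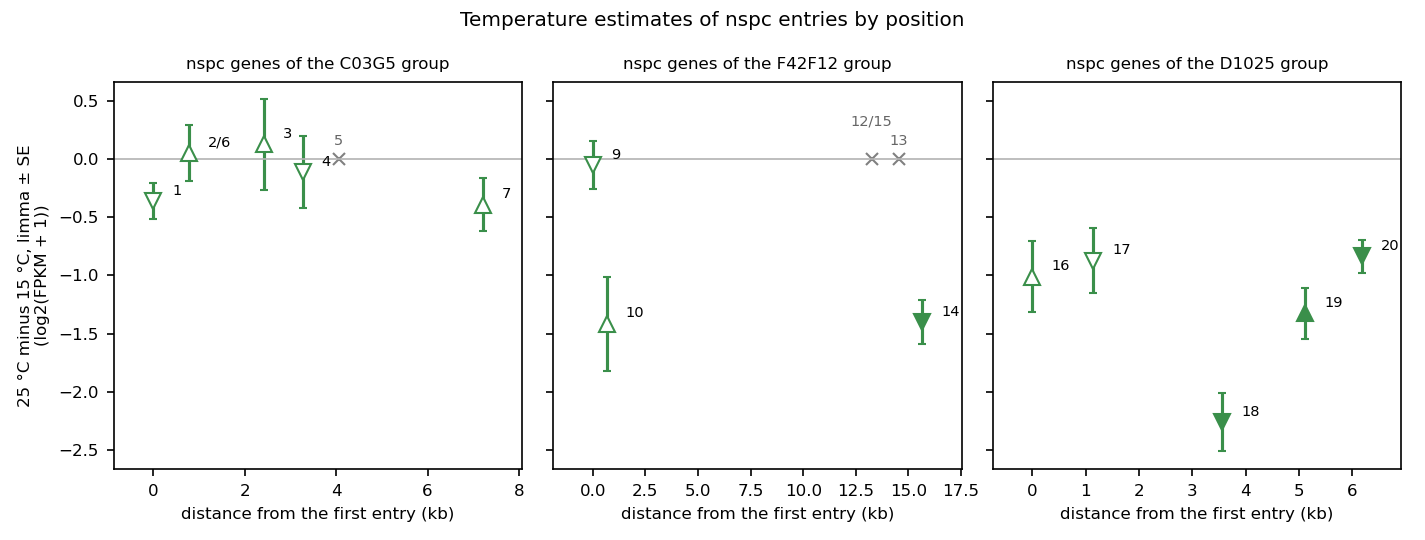
limma estimate of 25 °C minus 15 °C on the log2(FPKM + 1) scale (vertical axis, bars are ± 1 SE) for the nspc entries against their distance in kb from the first entry of their group, in 3 panels, 1 for each group. Triangles point up for the plus strand and down for the minus strand, filled ones have an adjusted p under 0.05, and grey crosses, set at 0, are entries under the filter with no estimate. All 5 D1025 entries lie below -0.8, and those of C03G5 lie around 0.

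Genes on both strands of WBcel235 fell, nspc-19 on the plus strand and nspc-18 and nspc-20 on the minus strand. Of 24 genes of other names that lie between entries of the 7 groups and passed the filter, 4 rose and 0 fell at 25 °C, where 14.6% of all genes rose and 4.68% fell. Most of the 24 lay in groups in which no nsp entry fell, and the D1025 group had none. In the F42F12 group CELE_F42F12.3 and CELE_F42F12.4 had estimates of 0.12 and 0.082 (adjusted p = 0.714 and 0.622). One of the 4 that rose, Y38E10A.14, lies inside the nspe group and had 24.0, 5.63, 45.0, 35.97 and 24.3 FPKM at 25 °C in the math-33 double mutant, daf-2, the math-33 single mutant, the daf-16 double mutant and N2, against 7.07, 1.19, 4.15, 1.24 and 4.86 FPKM at 15 °C. Its limma estimate was 2.51 (SE 0.37, adjusted p = 0.00954), opposite in sign to that of nspe-1.

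Markers of stage and tissue moved with temperature as well. Of the listed genes that passed the filter, 16 of 23 sperm genes, 8 of 9 nspd genes, 11 of 12 oocyte and eggshell genes, 5 of 5 vitellogenins, 3 of 12 germline genes and 1 of 8 adult cuticle genes rose at 25 °C and none of these fell. The lists of molting genes (3 of 15), intestine (3 of 7), muscle (3 of 6), pharynx (2 of 5) and neurons (2 of 6) had falls and no rises, and of 6 hypodermis genes none passed. The summed molting genes were 216 to 1781 FPKM at 25 °C and 1372 to 2629 FPKM at 15 °C. The part of these shifts in the fall of the nsp genes was not tested, and in whole worms fewer cells of a type and less RNA per cell cannot be told apart.

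Counted between 2 libraries at 1 log2 unit or more, each genotype had more entries lower than higher at 25 °C, except that with a pseudocount of 0.1 the math-33 single mutant had 8 higher and 5 lower. Of the 43 entries, 11 were lower and 2 higher in the math-33 double mutant, where 3.27% of all genes were lower and 10.1% higher. In daf-2 the counts were 6 lower and 2 higher (all genes 3.72 and 11.7%). In the math-33 single mutant 5 were lower and 3 higher (6.73 and 6.63%), in the daf-16 double mutant 8 lower and 2 higher (4.19 and 10.2%), and in N2 10 lower and 2 higher (3.82 and 13.3%). Outside the 6 called, nspe-5 in the math-33 double mutant had 2.78 FPKM at 25 °C against 16.7 FPKM at 15 °C, 5.99-fold lower (95% counting interval 2.76 to 13.1). nspb-10 was 4.16-fold lower at 25 °C in daf-2 (4.47 against 18.6 FPKM, interval 2.50 to 7.92). The math-33 single mutant, whose 25 °C library stood apart in its markers, had the fewest entries lower. Without either of its libraries, which takes this genotype out of the temperature estimate, 8 entries fell in the fit. Of all 16085 genes, 411 fell without its 25 °C library and 410 without its 15 °C library.

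With math-33 mutated, entries of nspa-4 to nspa-7 and nspe-7 rose, and nspb-6 had lower values. Over both backgrounds together (the double mutant against daf-2, and the single mutant against N2), 3 of 33 entries rose past the threshold with limma and 0 fell, where 3.37% of all genes rose and 0.578% fell (3.95% in all); 7 of the 33 had an unadjusted p under 0.05. The 3 were the entry of nspa-4 and nspa-5, that of nspa-6 and nspa-7, and nspe-7, and after centring 1 rose and 1 fell. The entry of nspa-6 and nspa-7 passed the filter only through the libraries of the math-33 single mutant, so its direction was largely set by the filter. All 4 nspa entries that passed the filter had positive estimates, between 0.76 and 2.12, also after centring, quantile normalization and with a pseudocount of 0.1. The entries of nspa-1 with nspa-3 and of nspa-6 with nspa-7 reached 1 FPKM only in libraries with math-33 mutated. The filter thus favoured a positive sign for them, and their signs are no separate support.

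The entry of nspa-4 and nspa-5 (chromosome V, 14878333 to 14878437) had 3.17 FPKM in the math-33 double mutant at 25 °C and 2.42 at 15 °C, and 27.4 and 6.93 FPKM in the math-33 single mutant at these temperatures, against 0.623 and 0 FPKM in daf-2, 0 and 0 in the daf-16 double mutant, and 2.45 and 0.611 FPKM in N2. The math-33 single mutant at 25 °C was far above the rest. There it rested on 44 read pairs, against 3.5 in N2 (11.2-fold higher, 95% counting interval 3.56 to 37.4), and it had 9 pairs against 1 at 15 °C (11.3-fold, 1.57 to 497). The estimate over both backgrounds was 2.12 (SE 0.32, adjusted p = 0.0295).

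The entry of nspa-6 and nspa-7 (14889392 to 14889496) had 0 and 0.69 FPKM at 25 and 15 °C in the math-33 double mutant and 3.11 and 3.08 FPKM in the math-33 single mutant, and was listed at 0 in the other 6 libraries. Its higher values rested on 5 and 4 read pairs, and its estimate was 1.21 (SE 0.23, adjusted p = 0.0438). It no longer passed without any 1 of the 10 libraries (adjusted p = 0.0676 to 0.169), nor after centring (0.0589) or quantile normalization (0.0547).

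nspa-8 (14826933 to 14827037), the most abundant nspa gene, had 7.399 and 16.2 FPKM at 25 and 15 °C in the math-33 double mutant and 37.3 and 34.7 FPKM in the math-33 single mutant, against 5.30 and 4.41 FPKM in daf-2, 5.23 and 3.06 FPKM in the daf-16 double mutant, and 12.95 and 0.916 FPKM in N2. The single mutant was higher than N2 by 2.88 times at 25 °C (95% counting interval 1.72 to 5.33), and at 15 °C, where N2 had 1.5 read pairs, by 37.8 times (9.68 to 2290). The last interval rounds the 1.5 pairs down to a whole number, and its upper end depends on that. The double mutant was 3.68-fold above daf-2 at 15 °C (1.63 to 9.67), and at 25 °C 1.40-fold with an interval of 0.570 to 4.45. It was higher in 4 of 4 comparisons but did not pass over both backgrounds (1.94, SE 0.55, adjusted p = 0.101), although without the N2 library at 25 °C it did (2.66, adjusted p = 0.0112). In WBcel235 nspa-8 lies in an intron of W06A7.4, on the other strand, and W06A7.4 itself had 12.2 FPKM in the math-33 single mutant at 25 °C and 5.31 to 9.57 FPKM in the other libraries.

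Sperm markers moved with the same comparison. The 23 sperm genes, which included spe-9 and several msp genes, summed to 1664 and 611 FPKM at 25 and 15 °C in the math-33 double mutant and 2908 and 1068 FPKM in the math-33 single mutant, against 332 and 170.4 FPKM in daf-2, 487 and 224 FPKM in the daf-16 double mutant, and 1427 and 231 FPKM in N2. None of them was at 0 throughout, and 15 of 23 rose with math-33 mutated over both backgrounds. The 10 nspd genes of the table, of which nspd-8 was at 0, summed to 478 and 209 FPKM in the math-33 double mutant and 904 and 433 FPKM in the math-33 single mutant, against 112 and 44.3 FPKM in daf-2, 161 and 52.1 FPKM in the daf-16 double mutant, and 445 and 61.2 FPKM in N2. Of the 9 that passed the filter 8 rose. The summed nspa group in the math-33 single mutant was 71.8 FPKM at 25 °C, against 15.4 FPKM in N2 (4.66-fold, 95% counting interval 2.92 to 7.69), and 44.7 against 1.53 FPKM at 15 °C. Of the other lists, 5 of 5 vitellogenins, 2 of 12 oocyte and eggshell genes and 1 of 8 adult cuticle genes rose in this contrast, and no gene of the germline, molting, hypodermis, intestine, pharynx, muscle and neuron lists passed. The part of sperm content in the nspa values was not tested.

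**Figure D4:**
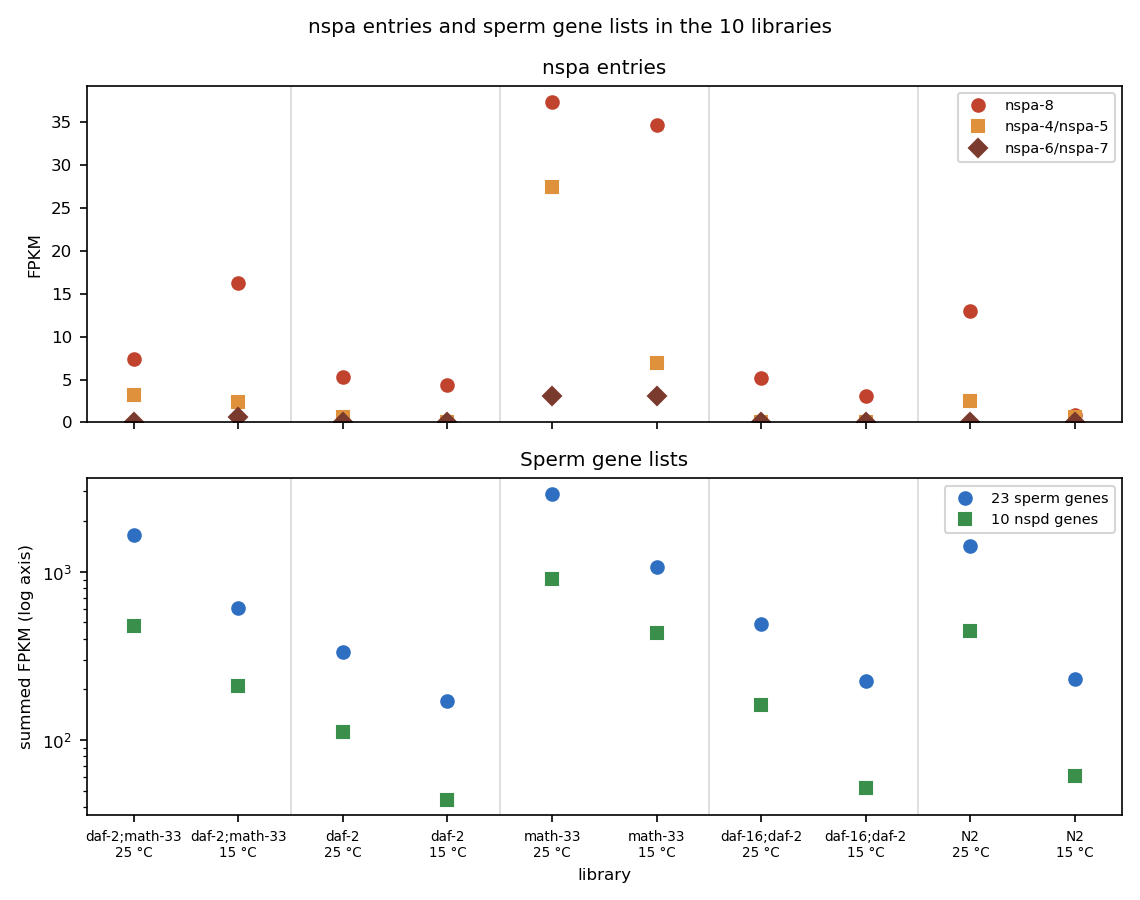
Upper panels show FPKM of nspa-8 and of the entries of nspa-4 with nspa-5 and nspa-6 with nspa-7 in every library, and the lower panels the summed FPKM of 23 sperm genes and of 10 nspd genes on a log axis, by genotype (horizontal axis) with 25 °C left of 15 °C. The highest nspa values, 37.3 and 34.7 FPKM of nspa-8, and the highest sperm sum, 2908 FPKM, are in the math-33 single mutant.

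nspe-7 (chromosome II, 12627141 to 12627411) was lowest in daf-2. It had 19.8 and 22.1 FPKM at 25 and 15 °C in the math-33 double mutant and 20.9 and 13.9 FPKM in the math-33 single mutant, against 5.78 and 8.06 FPKM in daf-2, 18.2 and 14.4 FPKM in the daf-16 double mutant, and 11.7 and 9.64 FPKM in N2. All 4 libraries with math-33 mutated were above all 4 of daf-2 and N2, and the estimate was 1.061 (SE 0.18, adjusted p = 0.0361). The double mutant exceeded daf-2 by 3.42 times at 25 °C (95% counting interval 2.05 to 6.04) and 2.74 times at 15 °C (1.80 to 4.41). daf-2 was in turn 3.15-fold lower than the daf-16 double mutant at 25 °C (1.87 to 5.51). The entries of nspa-4 with nspa-5 and of nspe-7 lost the call in 7 and 8 of the 10 fits without 1 library, with adjusted p-values of up to 0.155 and 0.168 and estimates of 1.79 to 2.45 and 0.895 to 1.23 over all 10, and nspe-7 missed it after centring (0.0517) and quantile normalization (0.0579). Without the math-33 single mutant at 25 °C, 1 entry passed, nspa-4 with nspa-5 (1.79, adjusted p = 0.0483).

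In contrast to these, nspb-6 had lower values in all 4 comparisons. The math-33 single mutant had 9.40 and 34.9 FPKM of nspb-6 at 25 and 15 °C, against 29.2 and 82.1 FPKM in N2, which is 3.11-fold (95% counting interval 2.11 to 4.66) and 2.35-fold lower (1.89 to 2.94). At 15 °C the math-33 double mutant was 2.44-fold below daf-2 (2.07 to 2.90), with 53.3 against 130.4 FPKM. The estimate over both backgrounds was -1.07 (SE 0.24, adjusted p = 0.0605), and it passed as a fall after centring (-1.20, adjusted p = 0.0462), among transcripts of at least 200 bases (adjusted p = 0.0438) and without daf-2 at 25 °C (-1.38, adjusted p = 0.0336). nspc-14 was also lower in 4 of 4 comparisons (-0.68, adjusted p = 0.124), and the strongly expressed nspe-1 was higher in 4 of 4 (0.28, adjusted p = 0.269).

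**Figure D5:**
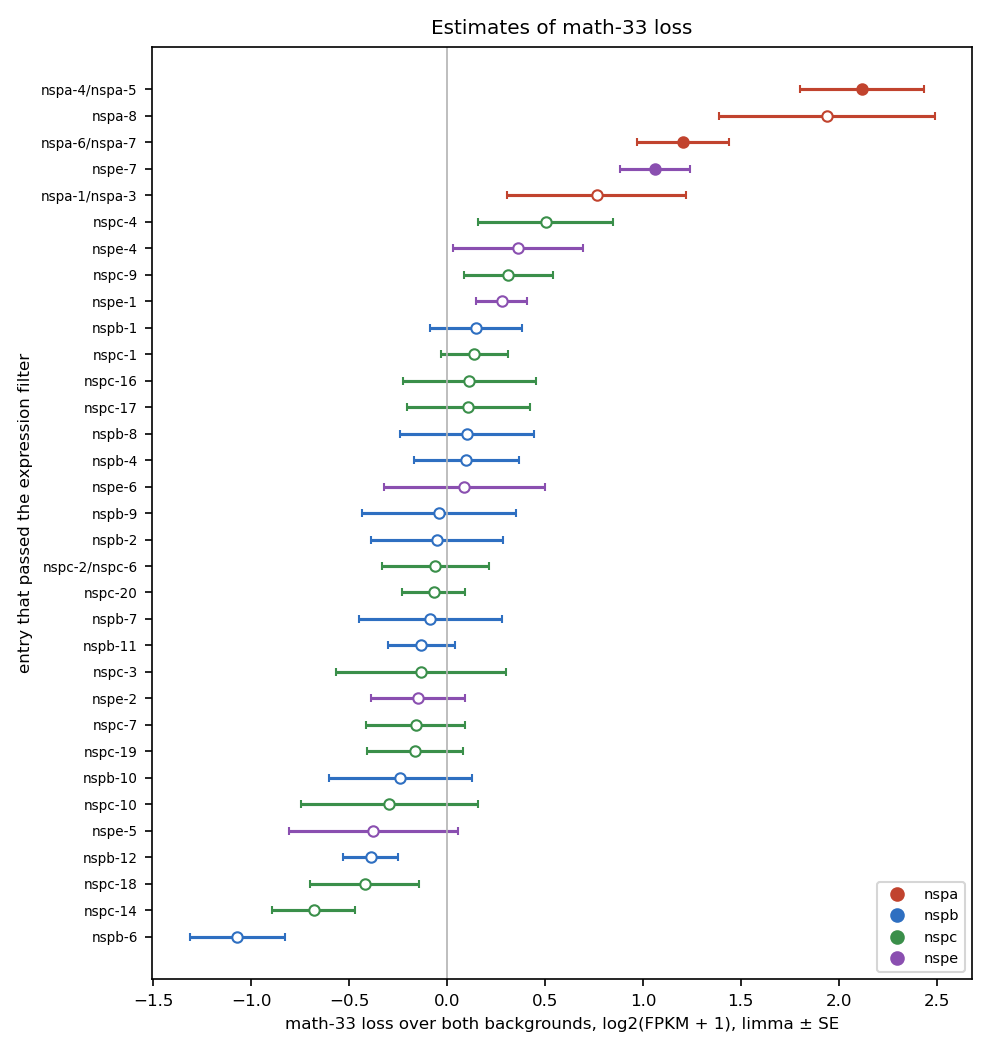
limma estimate for math-33 mutated over both backgrounds on the log2(FPKM + 1) scale (horizontal axis, bars are ± 1 SE) for the 33 entries that passed the filter, by family. Filled points have an adjusted p under 0.05: nspa-4 with nspa-5 at 2.12, nspa-6 with nspa-7 at 1.21 and nspe-7 at 1.061, with nspb-6 at the other end at -1.07.

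Within each background the fit to all 10 libraries called no entry. For the math-33 double mutant against daf-2 limma called 0 of 33 entries (0.0124% of all genes, 3 entries at an unadjusted p under 0.05), with nspe-7 first at 1.48 (SE 0.26, adjusted p = 0.124). For the math-33 single mutant against N2 it also called 0 (0.441% of all genes, 7 unadjusted), with nspa-6 and nspa-7 at 2.03 (adjusted p = 0.067) and nspa-4 and nspa-5 at 2.67 (0.071). In that comparison nspa-8 rose without N2 at 25 °C (4.28, adjusted p = 0.0241), and nspa-4 with nspa-5 rose without the single mutant at 15 °C (3.33, adjusted p = 0.0297). The term for an interaction between the math-33 and daf-2 mutations called 0 as well (0% of all genes, 6 unadjusted), so a different response in daf-2 and in the wild-type background was not detected by this fit.

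Between 2 libraries, at 25 °C 5 of the 43 entries were at least 1 log2 unit higher in the math-33 double mutant than in daf-2 and 2 lower, where 11% of all genes were higher and 5.13% lower. nspc-4 was 2.90-fold higher (20.7 against 7.12 FPKM, 95% counting interval 1.95 to 4.55). nspe-5 was 6.40-fold lower (2.78 against 17.8 FPKM, 2.96 to 13.7). nspe-8 had 2.26 FPKM from 7 read pairs in the math-33 double mutant at 25 °C and was at or under 0.70 FPKM in every other library, and nspc-18 was listed at 0 there, against 1.27 FPKM in daf-2. At 15 °C 5 were higher and 2 lower (all genes 8.8 and 1.97%). The lower ones were nspb-6, given above, and nspe-4, with 1.67 against 4.53 FPKM and an interval that held 1.

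For the math-33 single mutant against N2, 6 entries were higher and 2 lower at 25 °C (all genes 5.25 and 7.16%), and 4 were higher and 7 lower at 15 °C (11.5 and 2.79%). All 4 nspa entries that passed the filter were among those higher at 25 °C, the entry of nspa-1 and nspa-3 with 2.49 against 0 FPKM from 4 read pairs. That entry and the entry of nspa-6 and nspa-7 passed the filter only through libraries with math-33 mutated, so their direction is no separate support. nspc-4 was 2.15-fold higher at 25 °C (64.0 against 29.7 FPKM, 95% counting interval 1.74 to 2.66), and at 15 °C the single mutant had 36.4 FPKM and N2 34.7 FPKM. Among the lower ones, nspb-10 was 2.41-fold lower at 25 °C (3.92 against 9.43 FPKM, 1.29 to 5.07). At 15 °C nspc-19 was 3.001-fold lower (4.83 against 14.5 FPKM, 1.82 to 5.50), nspb-7 6.75-fold lower from 2 and 17 read pairs (1.60 to 60.2) and nspc-3 5.02-fold lower from 3 and 19 pairs (1.48 to 26.5).

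In daf-2, nspc genes had lower values than in N2, though none passed the test with all 10 libraries. Between daf-2 and N2, at 25 °C, 9 of the 43 entries were lower by 1 log2 unit or more in daf-2 and 2 were higher (20.9 and 4.7% of the entries), where 9.28% of all genes were lower and 9.33% higher. At 15 °C 13 were lower and 3 higher (30.2 and 7.0%), where 2.85% of all genes were lower and 2.92% higher. The shares of all genes cover only genes that passed the filter. Among the 33 entries that passed it, 9 were lower and 2 higher at 25 °C, and 12 lower and 3 higher at 15 °C. In the limma fit all 13 nspc entries that passed the filter had negative estimates of daf-2 minus N2, from -1.76 to -0.14 with a median of -0.99, also after centring, quantile normalization and with a pseudocount of 0.1. None of the 33 entries passed the adjusted threshold (0% of all genes did, and 11 entries had an unadjusted p under 0.05), with nspc-1 first at -1.44 (SE 0.24, adjusted p = 0.21). Without daf-2 at 15 °C nspc-4 fell (-2.15, adjusted p = 0.0465). The median of the 33 entries was -0.63 and that of all genes -0.023. Marker lists were lower in daf-2 too: 0 of 23 sperm genes, 0 of 9 nspd genes and 0 of 12 oocyte and eggshell genes had positive estimates. Their medians were -1.175, -1.096 and -0.542. The same held for 0 of 5 vitellogenins (-0.275), while 5 of 6 muscle genes and 4 of 6 neuron genes were positive. The part of these shifts in the nspc values was not tested.

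nspc-1 (chromosome X, 8534674 to 8534977) had 1.81 and 3.29 FPKM at 25 and 15 °C in daf-2, against 6.81 and 10.4 FPKM in N2, 3.77-fold lower (95% counting interval 1.75 to 9.99) and 3.17-fold lower (1.76 to 5.61). The other genotypes lay between 2.79 and 6.89 FPKM. At 25 °C nspc-4 was lower in daf-2 by 4.18 times (7.12 against 29.7 FPKM, 2.88 to 6.45), and nspc-7 4.55-fold lower (2.12 against 9.67 FPKM, 2.21 to 10.1). nspc-9 was listed at 0 in daf-2 at 25 °C, against 1.91 FPKM in N2 from 8 read pairs. Summed over its 6 entries, the C03G5 group had 13.2 FPKM in daf-2 at 25 °C, against 48.96 FPKM in N2, 3.72-fold lower (2.78 to 5.02), and it had 27.3 FPKM in the math-33 double mutant and 29.2 FPKM in the daf-16 double mutant.

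At 15 °C nspc-10 and nspc-3 had the most negative differences between daf-2 and N2 on the log2(FPKM + 1) scale. nspc-10 had 0.376 FPKM in daf-2 from 2 read pairs, against 9.27 FPKM in N2, 24.7-fold lower with a wide interval (6.51 to 212). nspc-3 had 0.094 FPKM in daf-2, at 0.5 of a read pair, against 3.96 FPKM in N2 from 19 pairs. nspc-19 was 3.17-fold lower (4.58 against 14.5 FPKM, 1.94 to 5.11). nspb-3, under the filter, was listed at 0 in daf-2 and at 1.92 FPKM in N2. A few entries went the other way: nspe-4 had 3.92 and 4.53 FPKM at 25 and 15 °C in daf-2, against 0.847 and 0.148 FPKM in N2, the last from 0.5 of a read pair. At 15 °C its difference was 2.27 on that scale, larger in size than that of nspc-3 (-2.18). nspe-5 was 3.22-fold higher in daf-2 at 25 °C (17.8 against 5.52 FPKM, 1.84 to 5.83), and nspb-10 2.12-fold higher at 15 °C (18.6 against 8.76 FPKM, 1.40 to 3.31).

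The comparison of daf-2 with the daf-16 double mutant asks which of these levels depend on DAF-16 in the receptor mutant. It shares the daf-2 libraries with the comparisons above. At 25 °C 3 entries were higher in daf-2 and 3 lower (all genes 7.06 and 5.09%), and at 15 °C 3 were higher and 5 lower (4.15 and 5.43%). The limma fit called 0 of 33 entries (0.0373% of all genes, 5 entries at an unadjusted p under 0.05), with nspe-7 first at -1.13 (SE 0.26, adjusted p = 0.214). Of the 13 nspc entries 12 had negative estimates, with a median of -0.66, and 12 were also negative after centring, quantile normalization and with a pseudocount of 0.1.

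Within the nspe group the differences at 25 °C went in both directions. nspe-5 was 6.51-fold higher in daf-2 than in the daf-16 double mutant at 25 °C (17.8 against 2.73 FPKM, 95% counting interval 3.19 to 14.8), and nspe-4 was higher as well, with 3.92 against 0.791 FPKM (4.95-fold, 1.14 to 22.6). nspe-6 had 1.76 and 1.30 FPKM at 25 and 15 °C in daf-2 and was listed at 0 in both libraries of the daf-16 double mutant. nspe-7, beside them, was lower in daf-2 at 25 °C, and nspe-1 and nspe-2 had 57.0 and 13.5 FPKM in daf-2, against 65.1 and 22.5 FPKM in the daf-16 double mutant. The nspe-5 level of 17.8 FPKM in daf-2 at 25 °C was its highest. The other 4 libraries at 25 °C had 2.73 to 8.08 FPKM, and those at 15 °C 6.21 to 16.7 FPKM.

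Among the nspc genes at 15 °C, nspc-16 had 0.841 FPKM in daf-2, against 6.997 FPKM in the daf-16 double mutant (8.32-fold lower, 95% counting interval 2.84 to 24.9). nspc-10 was 12.8-fold lower (0.376 against 4.83 FPKM, 2.99 to 111) and nspc-14 2.89-fold lower (6.86 against 19.8 FPKM, 1.90 to 4.34). At 15 °C daf-2 was also below N2 for nspc-10 and nspc-14 (6.86 against 17.7 FPKM), and for nspc-16 N2 had 1.97 FPKM. Among nspb genes nspb-10 was 3.19-fold higher in daf-2 at 15 °C (18.6 against 5.82 FPKM, 1.94 to 5.96), nspb-8 had 2.16 against 0 FPKM, and at 25 °C nspb-4 was listed at 0 in daf-2, against 1.10 FPKM from 4 read pairs in the daf-16 double mutant. The abundant nspb-11 and nspb-12 varied less, between 4.79 and 14.5 FPKM and between 12.8 and 28.1 FPKM over the 10 libraries.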

How the data were processed

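Polyadenylated RNA of whole worms was sequenced as stranded paired-end libraries, 1 for each of 10 combinations of genotype and temperature, per the labels' protocols. The deposited table holds FPKM per transcript, made by the authors. The submitters' processing notes name STAR, HOMER, edgeR and build ce10, with no roles or versions. The sources used here do not give how reads shared by near-identical genes were assigned or whether strand was used in counting, so values of close copies are uncertain.

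For each symbol the transcript with the highest mean FPKM was used (3457 symbols had several). Of 47467 transcripts, 1104 without a gene name (1.723 to 1.974% of summed FPKM) were left out. Depth was read from FPKM times length, which in transcripts of 300 to 1500 bases came in whole multiples of 1 step (100.0% within 0.01%). It gave 12.61 to 17.61 M read pairs per library. Exact 95% intervals of ratios use these pairs, rounded to whole pairs, and they cover counting error only. The limit of 3 pairs for a listed 0 does not enter the intervals. A single mate counts as 0.5 of a pair in the read pairs and fold values given. In the intervals it is rounded up or down to a whole pair, which matters where pairs are few.

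Differences are on log2(FPKM + 1), which understates changes of weak genes. Genes with at least 1 FPKM in 2 libraries were tested with limma 3.58.1 (R 4.3.3), with a mean-variance trend, genotype and temperature terms and 4 residual degrees of freedom. Its spread is that of genotype by temperature departures, not of replicate cultures. P-values were adjusted by Benjamini-Hochberg at 0.05 over 16085 genes. The fit was tested on simulated data. Between single libraries, entries at least 1 log2 unit apart were counted among all 43, while the shares of all genes beside them are over the 16085 that passed the filter. Entries were joined into groups within 100 kb. Python 3.11.15, numpy 2.4.6, pandas 2.3.3, scipy 1.17.1 and matplotlib 3.10.9 were used. All 48 symbols matched RefSeq (WBcel235), which was used for loci. Strand and introns were taken from Ensembl gene models of WBcel235, present for 44 of the 48 symbols. Neither source was used for coordinates.

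The members and marker lists were chosen with earlier results of these data known. Genes named are the 3 highest by mean FPKM of each family, those with the largest and smallest temperature estimate in each family, those passing limma in any contrast (at most 5 each) and the 3 highest and lowest differences of each genotype comparison. nspc-1, nspc-17, W06A7.4 and Y38E10A.14 lie outside the rule and were named after their values were seen. Promoter sequence was not analysed here. Alternatives were another pseudocount, other filters, centring on the median, quantile normalization, summed transcripts, transcripts of at least 200 bases, no trend, and each library left out in turn.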

Additional observations from a re-analysis of the deposited data

Results flagged for a closer look

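For nspa-8 and nspc-3, differences of at least 1 log2 unit between the temperatures went in opposite directions in different genotypes, each with a 95% counting interval of the ratio that did not hold 1. The entry of nspa-1 with nspa-3 (-1.25 to 1.80) and nspb-8 (-1.03 to 1.10) also reached 1 log2 unit in both directions, but from few read pairs and without such intervals. nspa-8 was higher at 25 °C than at 15 °C in N2 by 2.86 on the log2(FPKM + 1) scale, with 12.95 against 0.916 FPKM, while in the math-33 double mutant the difference was -1.04, with 7.399 against 16.2 FPKM. The value of N2 at 15 °C rests on 1.5 read pairs. nspc-3 had a difference of 1.25 in daf-2, with 1.59 FPKM at 25 °C against 0.094 FPKM at 15 °C, and of -1.63 in N2, with 0.597 against 3.96 FPKM. These differences between genotypes were not tested, since each rests on 1 library per group.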

How the results depend on the processing

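The 6 temperature falls kept their sign in every alternative run. Each passed in all, except nspc-19 without either library of the math-33 double mutant. The number of entries passing was 10 after centring and 5 to 8 without 1 library. Over both backgrounds, 3 entries passed for math-33, 0 with no filter and 1 after quantile normalization (nspa-4), and 0 to 3 without 1 library. Centring left 1 rise (nspa-4) and 1 fall (nspb-6), and moved all genes from 542 rises and 93 falls to 410 and 202. The calls over all genes dropped as well, from 635 of 16085 to 106 of 23797 with no filter and to 276 of 16085 after quantile normalization. Temperature calls of all genes moved likewise, with 2346 rises and 753 falls, against 1381 and 1734 after centring. Its median over all genes was 0.089, and -0.080 after centring. For the math-33 single mutant against N2, 71 of all 16085 genes passed, 53 of 23797 with no filter and 53 of 16085 with no trend. The math-33 single mutant against N2 had 1 entry (nspa-6) with no filter and 1 (nspa-6) with no trend, and 0 to 1 without 1 library (nspa-8 without N2 at 25 °C, nspa-4 without the single mutant at 15 °C). daf-2 against N2 had 0 to 1 (nspc-4, -2.15, adjusted p = 0.0465, without daf-2 at 15 °C). The interaction and a fit with entries of equal coordinates kept once were chosen after seeing the data. Of the 43 entries, 20 passed a filter of 5 FPKM and 42 were above 0 in some library.

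Counts of entries 1 log2 unit apart between 2 libraries depend on the pseudocount. The shares of all genes were counted only with a pseudocount of 1 and at 1 log2 unit. Whether the counts below differ from those of all genes at the same settings is therefore not known. With 0.1 they were 20 at 25 °C and 19 at 15 °C for the math-33 double mutant against daf-2, 14 at 25 °C for the math-33 single mutant against N2, 25 at 25 °C for daf-2 against N2, and 19 and 21 for daf-2 against the daf-16 double mutant. For 25 against 15 °C they were 23 in the math-33 double mutant, 17 in daf-2, 13 in the math-33 single mutant and 23 in the daf-16 double mutant. At 2 log2 units they were 1 at 25 °C and 0 at 15 °C for the math-33 double mutant against daf-2, 2 and 3 for the math-33 single mutant against N2, 0 and 3 for daf-2 against N2, and 1 and 2 for daf-2 against the daf-16 double mutant. For temperature they were 3, 1, 0, 4 and 3 in the math-33 double mutant, daf-2, the math-33 single mutant, the daf-16 double mutant and N2. The balance of directions turned in the math-33 single mutant for temperature (8 higher and 5 lower with 0.1, against 3 and 5), in the math-33 single mutant against N2 at 15 °C (3 higher and 0 lower at 2 log2 units, against 4 and 7), and in the math-33 double mutant against daf-2 (0 higher and 1 lower at 25 °C at 2 log2 units, and 4 and 5 at 15 °C after quantile normalization, against 5 and 2 at each). Their cause was not tested.

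The temperature fit pairs the 2 libraries of each genotype through its genotype term. No further replicate block was fitted, since each group has 1 library and the labels carry no replicate numbers. Most entries rest on few read pairs, since the transcripts are short, and 10 of 43 lie under the filter. The fit has 4 residual degrees of freedom and no replicates, and calls near the threshold changed with single libraries. A fit without 1 library has fewer residual degrees of freedom. The libraries of the daf-16 double mutant are no part of the math-33 contrast. Without either of them the estimates of nspa-4 with nspa-5 and of nspe-7 stayed at 2.12 and 1.061, and the calls were still lost.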
